A study of Homo sapiens with 6 samples.

Results

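Keratins are the proteins of the intermediate filaments of epithelial cells. Each filament is built from pairs of 1 acidic type I chain and 1 neutral to basic type II chain, and different epithelia use different pairs. KRT8 with KRT18, joined by KRT7 and KRT19, is typical of simple and glandular epithelia, including the luminal cells of the prostate. KRT5 with KRT14, and KRT15, mark basal cells, and other pairs belong to the upper epidermis, to the hair follicle sheath or to hair and nail. Keratin genes are widely used to tell epithelial cell types and carcinomas apart.

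The keratin genes were taken as all symbols made of KRT, a number and an optional letter A, B or C, which leaves out keratin pseudogenes and keratin-associated proteins. This gave 55 of the 24462 gene symbols, 29 of type I and 26 of type II, and each of them had a single row of counts. RNA-seq was carried out on PC3 cells, a human prostate cancer line derived from a bone metastasis. The 3 libraries labelled si-Control came from cells given a non-targeting siRNA, and the 3 labelled si-CITED2 from cells given siRNA against CITED2, a transcriptional co-regulator. Both siRNAs were used at 80 nM for 72 h, and all 6 libraries come from this 1 line without any other alteration named in the labels. The methods list a single siRNA sequence against CITED2, while the labels speak of siRNAs in the plural.

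The libraries held between 19508925 and 28936374 counts. Values below are normalized counts (counts scaled to a common library size after TMM normalization) with the SD over 3 libraries, and the groups were compared by the quasi-likelihood test of edgeR. P-values were adjusted over the 16314 genes fitted (Benjamini-Hochberg), with a threshold of 0.05. The check of the targeted gene's mRNA went against the labels, while the study reports an immunoblot of the protein as its check of knockdown. CITED2 stood at 858.6, 892.0 and 773.0 in si-Control and at 1084, 921.1 and 983.9 in the libraries labelled si-CITED2, a log2 fold change of 0.24 ± 0.074 (SE; adjusted p = 0.0363). Every direction given here is therefore that of libraries labelled si-CITED2 against si-Control. As to cell identity, EPCAM and CDH1 were expressed in all libraries, and KLK3, which PC3 cells are known to lack, had at most 2 counts.

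Of the 55 keratins, 10 had enough counts to enter the fit, 5 of type I and 5 of type II. KRT7, KRT8, KRT18, KRT80 and KRT81 were higher and KRT15 was lower in the libraries labelled si-CITED2, whereas KRT19, KRT10, KRT86 and KRT16 did not pass the threshold. Thus 5 of 10 fitted keratins were called higher, where 9.36% of all fitted genes were, and 1 of 10 was called lower, where 8.09% were. The 5 higher keratins were 4 of the 5 fitted type II genes and 1 of the 5 fitted type I genes. In 5 of the 10 the values did not overlap between the groups and were higher (16.4% of all fitted genes), and in KRT15 and KRT16 they did not overlap and were lower (16.1%). A keratin can pass the count filter through 1 group alone, so these shares describe the fitted genes only. In bulk RNA, a change in the share of cells with a keratin and a change in its RNA per cell cannot be told apart.

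**Figure D1:**
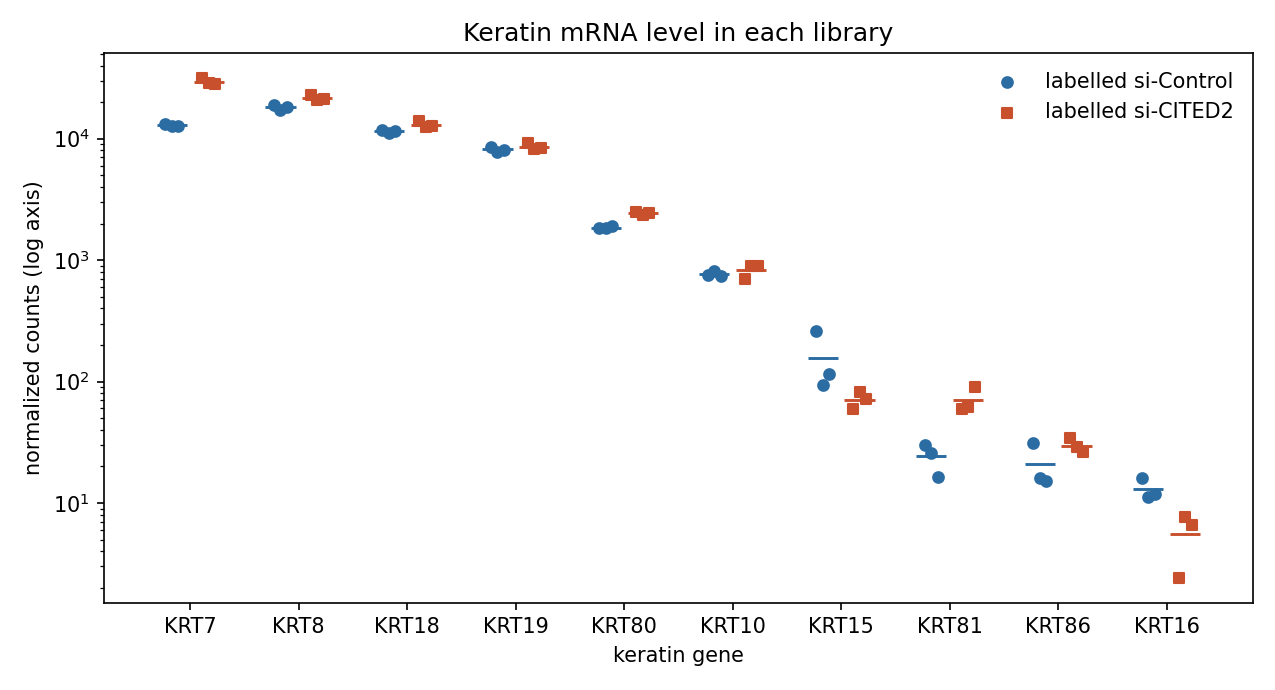
Normalized counts (log axis) of the 10 fitted keratins, with 1 point per library and a line at the mean of each group of 3. KRT7 has the widest gap between the groups among the 4 most abundant keratins, and the si-Control points of KRT15 spread from 93.4 to 263.1.

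Among the keratins of simple epithelia, KRT7, a type II chain of glandular ducts, changed most. It stood at 13187, 12804 and 12751 normalized counts in si-Control and at 31586, 28574 and 28367 in the libraries labelled si-CITED2. The lowest of the latter lay above the highest of the former by more than the whole range of either group. The means were 12914 ± 237.7 and 29509 ± 1801 (SD, n = 3), a 2.28-fold difference (log2 fold change 1.19 ± 0.051 SE, 95% interval 1.08 to 1.30, adjusted p = 4.85e-11). An annotated antisense gene, KRT7-AS, overlaps 12.6% of the KRT7 exon bases. Whether the counting used strand was not given in the sources used here, so reads within this overlap cannot be told apart.

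KRT8, the type II partner of KRT18, stood at 18756, 17343 and 18348 in si-Control and at 22684, 20722 and 21022 in the libraries labelled si-CITED2. The groups did not overlap, and the difference was 1.18-fold (log2 fold change 0.24 ± 0.050 SE, 95% interval 0.14 to 0.35, adjusted p = 0.0026). KRT18 stood at 11849, 11027 and 11639 in si-Control and at 13985, 12485 and 12632 in the libraries labelled si-CITED2. It was 1.13-fold higher (log2 fold change 0.18 ± 0.053 SE, 95% interval 0.067 to 0.29, adjusted p = 0.0267). Its call was the least stable of the higher keratins. It was lost without si-Control 2 (log2 fold change 0.15, adjusted p = 0.145), without si-Control 3 (0.19, adjusted p = 0.0514) and without si-CITED2 1 (0.13, adjusted p = 0.110). The gap between the lowest KRT18 value labelled si-CITED2 and the highest si-Control value was smaller than the range within either group.

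KRT19, the shortest keratin and one without a tail domain, stood at 8606, 7750 and 8062 in si-Control and at 9164, 8171 and 8435 in the libraries labelled si-CITED2. The groups overlapped, with a log2 fold change of 0.077 ± 0.055 (SE, 95% interval -0.039 to 0.19, adjusted p = 0.397). The other simple epithelial keratins on the list, KRT20 and KRT23, had at most 2 counts in any library.

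**Figure D2:**
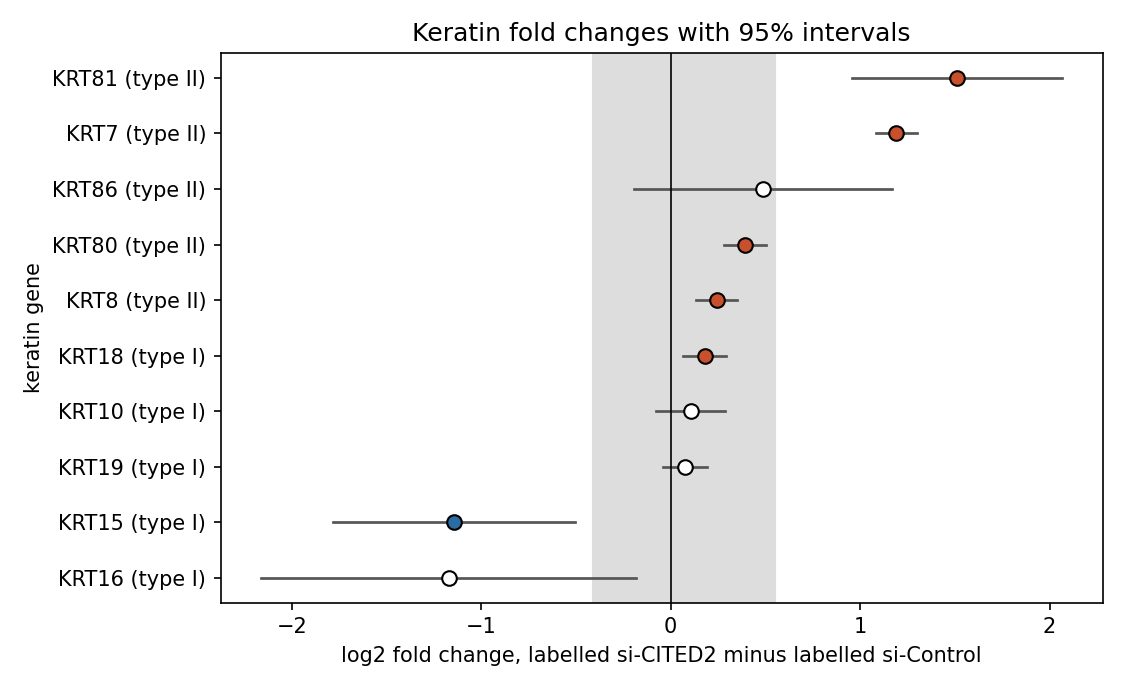
Log2 fold changes of the fitted keratins with 95% intervals; filled points passed the threshold (red higher, blue lower) and open points did not. The grey band runs from -0.41 to 0.55, the 5th to the 95th percentile of all fitted genes, and KRT81, KRT7, KRT15 and KRT16 lie outside it.

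KRT80, a type II epithelial keratin expressed in many epithelia, stood at 1828, 1826 and 1891 in si-Control and at 2506, 2341 and 2433 in the libraries labelled si-CITED2. The groups lay apart, and the difference was 1.31-fold (log2 fold change 0.39 ± 0.052 SE, 95% interval 0.28 to 0.50, adjusted p = 4.27e-05). KRT10, a type I keratin of the upper epidermis, stood at 754.6, 812.3 and 746.0 in si-Control and at 697.0, 895.3 and 894.0 in the libraries labelled si-CITED2. Its lowest and its highest value both came from the libraries labelled si-CITED2, and the log2 fold change was 0.11 ± 0.086 (SE, 95% interval -0.077 to 0.29, adjusted p = 0.468). KRT1, the usual type II partner of KRT10 in epidermis, had at most 2 counts.

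KRT81 and KRT86 are type II keratins of the hair shaft. In si-Control, KRT81 received 34, 32 and 14 counts, and in the libraries labelled si-CITED2 it received 49, 64 and 83. In normalized counts this was 30.2, 25.8 and 16.5 against 59.5, 61.2 and 90.9, so the groups did not overlap. The means were 24.2 ± 7.01 and 70.5 ± 17.7 (SD, n = 3), a fitted 2.85-fold difference (log2 fold change 1.51 ± 0.26 SE, 95% interval 0.96 to 2.07, adjusted p = 5.71e-04). KRT86 received 35, 20 and 13 counts in si-Control against 28, 30 and 24 in the other group, or means of 20.8 ± 8.91 and 29.7 ± 3.95 normalized counts. The groups overlapped through si-Control 1. Its log2 fold change was 0.49 ± 0.32 (SE, 95% interval -0.19 to 1.17, adjusted p = 0.355).

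KRT81 and KRT86 are near-identical, which limits how well their counts can be told apart. The coding sequences (GENCODE 29) matched at 1351 of 1451 aligned bases (93.1%), with an unbroken match of 605 bases, and 38.4% of all 50-base windows of the KRT81 transcript also occur in KRT86. Reads can be assigned to 1 of the genes only near the differing positions. A stretch of 90 coding bases, coding bases 1246 to 1335 of both genes, is printed with the 25 differing bases in capitals. It was picked without gaps from the start codon, and stretches with more than 25 differences were not considered.
KRT81: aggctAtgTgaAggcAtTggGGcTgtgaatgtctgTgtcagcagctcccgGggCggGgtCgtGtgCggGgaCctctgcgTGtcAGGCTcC
KRT86: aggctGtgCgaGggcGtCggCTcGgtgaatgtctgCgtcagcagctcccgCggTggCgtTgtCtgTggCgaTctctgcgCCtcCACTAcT
How reads that fit both genes were counted was not given in the sources used here. With the counts of both genes summed, 69, 52 and 27 counts in si-Control stood against 77, 94 and 107 in the libraries labelled si-CITED2. The sum was higher with a log2 fold change of 1.13 (adjusted p = 0.0015).

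Of the 8 keratins of basal and wounded epithelium, KRT15 and KRT16 were fitted, and KRT15 was called lower. KRT15, a type I keratin of basal cells, stood at 263.1, 93.4 and 115.3 normalized counts in si-Control and at 59.5, 81.2 and 72.3 in the libraries labelled si-CITED2. All si-Control values lay above the other group, but si-Control 1 stood far above the other two. The means were 157.3 ± 92.3 and 71.01 ± 10.92 (SD, n = 3), a log2 fold change of -1.14 ± 0.30 (SE, 95% interval -1.78 to -0.50, adjusted p = 0.0142). Without si-Control 1 the log2 fold change was -0.53 and the adjusted p 0.0648. Without si-CITED2 1 it was -1.04 with an adjusted p of 0.0656, and DESeq2 gave -1.15 with an adjusted p of 0.0972.

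KRT16, a type I keratin induced in wounded and hyperproliferative epidermis, stood at 16.0, 11.3 and 11.8 in si-Control and at 2.43, 7.64 and 6.57 in the libraries labelled si-CITED2. The groups did not overlap, and the log2 fold change was -1.17 ± 0.47 (SE, adjusted p = 0.101). Of the 1595 windows of 50 bases in KRT16, 351 also occur in other genes, foremost the pseudogene KRT16P3 and KRT14. When KRT16 was summed with its pseudogenes KRT16P1, KRT16P2 and KRT16P3, the sum was lower with a log2 fold change of -0.89 (adjusted p = 0.0294).

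The classic basal pair was almost silent. KRT5 received 2, 14 and 10 counts in si-Control libraries against 5, 6 and 4 in the libraries labelled si-CITED2, and KRT14 had at most 4. KRT17, another basal and wound keratin, had 5, 13 and 9 against 8, 3 and 6 counts. The summed level of the 8 basal and wound keratins was 13.2, 6.01 and 6.64 CPM (counts scaled to a fixed library size) in si-Control and 4.87, 5.15 and 5.07 CPM in the libraries labelled si-CITED2. KRT15 carried this gap. Without KRT15, the other 7 summed to 2.104, 2.004 and 1.710 CPM in si-Control against 2.358, 1.731 and 2.028 CPM, and the groups overlapped.

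KRT6A, KRT6B and KRT6C, the type II partners of KRT16, were too low for the fit. KRT6A received 12, 3 and 1 counts in si-Control against 9, 7 and 9 in the libraries labelled si-CITED2, and the groups overlapped. In normalized counts, KRT6B stood at 7.999, 4.025 and 2.35 in si-Control and at 12.1, 8.60 and 11.0 in the libraries labelled si-CITED2. KRT6C stood at 7.999, 4.025 and 1.18 against 12.1, 8.60 and 8.76. Both lay higher in the libraries labelled si-CITED2 without overlap, opposite to KRT15 and KRT16, and neither entered the main fit. When all genes with a non-zero count were fitted, neither KRT6B nor KRT6C was called. The raw sum of the 3 genes was 30, 13 and 4 against 29, 25 and 27 counts, which overlapped through si-Control 1. These genes are closer to each other than KRT81 and KRT86 are. KRT6A matched KRT6B at 97.5% and KRT6C at 97.9% of its 1692 coding bases, and KRT6B matched KRT6C at 98.5%. The 90 coding bases with the most differences, coding bases 656 to 745, are shown to make visible how few positions separate the genes, with the 10 differing positions in capitals.
KRT6A: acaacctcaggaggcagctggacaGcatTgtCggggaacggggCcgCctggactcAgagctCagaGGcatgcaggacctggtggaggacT
KRT6B: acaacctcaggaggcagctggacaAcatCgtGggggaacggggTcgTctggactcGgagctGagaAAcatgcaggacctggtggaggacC
KRT6C: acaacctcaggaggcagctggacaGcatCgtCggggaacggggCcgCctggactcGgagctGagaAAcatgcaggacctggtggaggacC
The values of the single KRT6 genes are therefore uncertain.

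In all, 45 keratins stayed outside the fit. Of these, 10 had 0 counts in every library, namely KRT9, KRT24, KRT25, KRT27, KRT28, KRT33A, KRT33B, KRT37, KRT38 and KRT40. A further 15 had at most 1 or 2 counts in any library, 12 had between 3 and 8 at most, and 8 reached 10 to 27 (KRT5, KRT6A, KRT6B, KRT6C, KRT13, KRT17, KRT83 and KRT222). The highest single value was that of KRT13, a type I keratin of the lining of mouth and oesophagus, with 27 counts in si-Control 1 against 5 and 1 in the other si-Control libraries and 4, 4 and 6 in those labelled si-CITED2. Thus si-Control 1 held the highest KRT13, KRT15 and KRT16 of all libraries, and what this library shares with these genes was not tested. A value of 3 counts, taken as the detection floor, corresponded to 0.104 to 0.154 CPM, so a keratin at 0 counts was not detectable at this depth rather than absent. All 9 keratins of the hair follicle sheath were outside the fit, with a summed level of 0.151 to 0.461 CPM. Of the 17 hair and nail keratins, only KRT81 and KRT86 were fitted, and the list's summed level was 1.56 to 3.16 CPM in si-Control and 4.10 to 5.90 CPM in the libraries labelled si-CITED2.

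**Figure D3:**
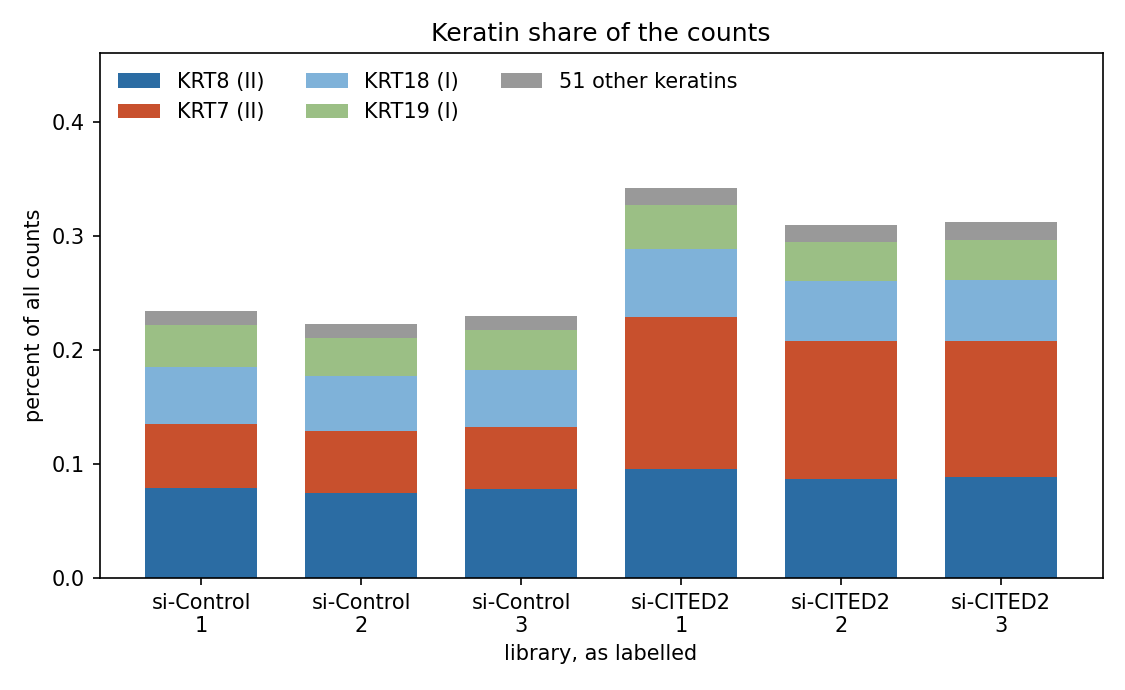
Percent of all counts in each library that fell on keratin genes, stacked by gene. The total runs from 0.222% to 0.234% in si-Control and from 0.310% to 0.341% in the libraries labelled si-CITED2, and the KRT7 segment is the one that widens most.

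Keratin genes together took 0.229% ± 0.006 of all counts in si-Control and 0.321% ± 0.018 in the libraries labelled si-CITED2 (SD, n = 3). KRT7, KRT8, KRT18 and KRT19 made up 94.6% ± 0.11 and 95.4% ± 0.33 of this keratin total. Within it, KRT7 went from 24.1% ± 0.54 to 38.7% ± 0.40, and KRT8 from 33.8% ± 0.36 to 28.2% ± 0.16. The shares of KRT18 (21.5% ± 0.21 and 17.1% ± 0.16) and of KRT19 (15.2% ± 0.31 and 11.3% ± 0.14) were also smaller in the libraries labelled si-CITED2. As these are parts of a whole, a larger KRT7 share lowers the other shares even where, as for KRT8 and KRT18, the level itself was higher.

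Levels of different genes can be compared only per length. On the scale of normalized counts per kilobase of the longest coding transcript (GENCODE 29), the order in si-Control was KRT8 (7447 ± 298.3), KRT7 (7363 ± 135.5), KRT18 (6784 ± 252.0) and KRT19 (5856 ± 311.7), followed by KRT80 (474.7 ± 9.46) and KRT10 (363.0 ± 16.99). On the lengths taken, 2437 bases for KRT8 and 1754 for KRT7, these 2 genes did not differ there beyond their spread. The levels per kilobase and their order depend on the transcript taken for each gene. Which transcripts the cells made was not tested. In the libraries labelled si-CITED2, KRT7 led with 16824 ± 1027 and KRT8 followed with 8812 ± 433.6, while KRT18 (7685 ± 487.4), KRT19 (6180 ± 370.0), KRT80 (623.2 ± 21.3) and KRT10 (390.2 ± 53.7) kept their places. Lower down, KRT15 stood above KRT81 in si-Control (30.03 ± 17.62 against 12.5 ± 3.64) and below it in the libraries labelled si-CITED2 (13.6 ± 2.08 against 36.6 ± 9.17). In si-Control this last pair did not differ beyond the spread of KRT15. In normalized counts, KRT15 (71.01 ± 10.92) and KRT81 (70.5 ± 17.7) stood near each other in the libraries labelled si-CITED2. Their order per kilobase there rests on the lengths taken, 5237 bases for KRT15 and 1929 for KRT81.

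The balance of the chain types moved with KRT7. Per kilobase of the same transcripts, type II levels were 1.16 to 1.19 times type I levels in si-Control and 1.83 to 1.86 times in the libraries labelled si-CITED2. By counts, the ratio was 1.57 to 1.63 and 2.36 to 2.39. Ratios of single keratins within a library were then compared, with counts in place of levels.

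KRT7 over KRT8 was 0.712 ± 0.023 in si-Control and 1.37 ± 0.022 in the libraries labelled si-CITED2 (SD, n = 3). KRT7 over KRT19 went from 1.59 ± 0.060 to 3.44 ± 0.068, and KRT8 over KRT19 from 2.23 ± 0.049 to 2.50 ± 0.031. KRT8 over KRT18, the ratio of the usual partners, moved least, from 1.58 ± 0.005 to 1.65 ± 0.023. KRT81 over KRT86 went from 1.22 ± 0.34 to 2.45 ± 0.90. None of the 5 ratios overlapped between the groups. Each gave a two-sided exact permutation p of 0.1 (0.1 after adjustment over the 5 ratios), which is the smallest that 3 against 3 libraries allow and misses the threshold. KRT8 and KRT18 lie next to each other, on opposite strands, and share 135 exon bases, which is 6.72% of the exon bases of KRT18. In addition, 43.4% of the 50-base windows of KRT18 occur in other genes, 19.8% in transcripts assigned to KRT8.

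By position, 27 of the keratins lie on chromosome 12 and 28 on chromosome 17 (GENCODE 29, GRCh38; the submitters' processing notes name hg19, so no coordinates are given). The chromosome 12 cluster holds the type II genes and the type I gene KRT18. Of its members 6 were fitted, and 5 of them were higher, where 9.36% of all fitted genes were. KRT80, KRT7, KRT86 and KRT81 are the first 4 keratins at 1 end of this cluster, and KRT8 and KRT18 are the last 2 at the other. The keratins between them were all outside the fit. The 28 keratins on chromosome 17 are all of type I; 4 were fitted, and KRT15 was the only 1 called (lower, as were 8.09% of all fitted genes). By edgeR's quasi-likelihood test 0 of these 4 were higher, also at an unadjusted p under 0.05, and DESeq2 likewise gave 0.

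Keratin filaments are anchored at desmosomes and hemidesmosomes. Of the 22 genes on the anchoring list, 19 were fitted, 5 were higher, 6 were lower and 8 did not pass (median log2 fold change -0.03). Over all fitted genes, 9.36% were higher and 8.09% lower, with a median of -0.0014. PKP1, a desmosomal plaque protein, went from 24.5 ± 5.11 to 87.4 ± 18.2 normalized counts (log2 fold change 1.85 ± 0.24 SE, adjusted p = 3.06e-05). ITGB4, the integrin subunit of hemidesmosomes, was higher by 0.33 ± 0.076 (adjusted p = 0.0061), and the desmosomal cadherin DSC2 by 0.27 ± 0.063 (adjusted p = 0.0065). Conversely, PPL, which links keratin filaments to desmosomes, went from 1551 ± 91.9 to 917.3 ± 76.3 (-0.76 ± 0.070, adjusted p = 6.16e-07). The hemidesmosomal collagen COL17A1 (-0.41 ± 0.10, adjusted p = 0.0082) and the plaque protein PKP2 (-0.41 ± 0.13, adjusted p = 0.0366) were also lower.

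Among 11 genes that modify, bind or degrade keratins, all fitted, 3 were higher (9.36% of all fitted genes), 3 were lower (8.09%) and 5 did not pass (median 0.0030). KLHL24, a ubiquitin ligase adaptor that acts on keratins, was higher by 0.78 ± 0.10 (SE, adjusted p = 3.36e-05). The crosslinking enzyme TGM2 was higher by 0.67 ± 0.044 (adjusted p = 1.15e-08), and YWHAZ, a 14-3-3 protein, by 0.22 ± 0.043 (adjusted p = 0.0016). TCHP, which binds keratin filaments, stood at -0.32 ± 0.068 (adjusted p = 0.0033), SFN, another 14-3-3 protein, at -0.20 ± 0.050 (adjusted p = 0.0085) and STUB1, a ubiquitin ligase, at -0.18 ± 0.054 (adjusted p = 0.0315), all lower.

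**Figure D4:**
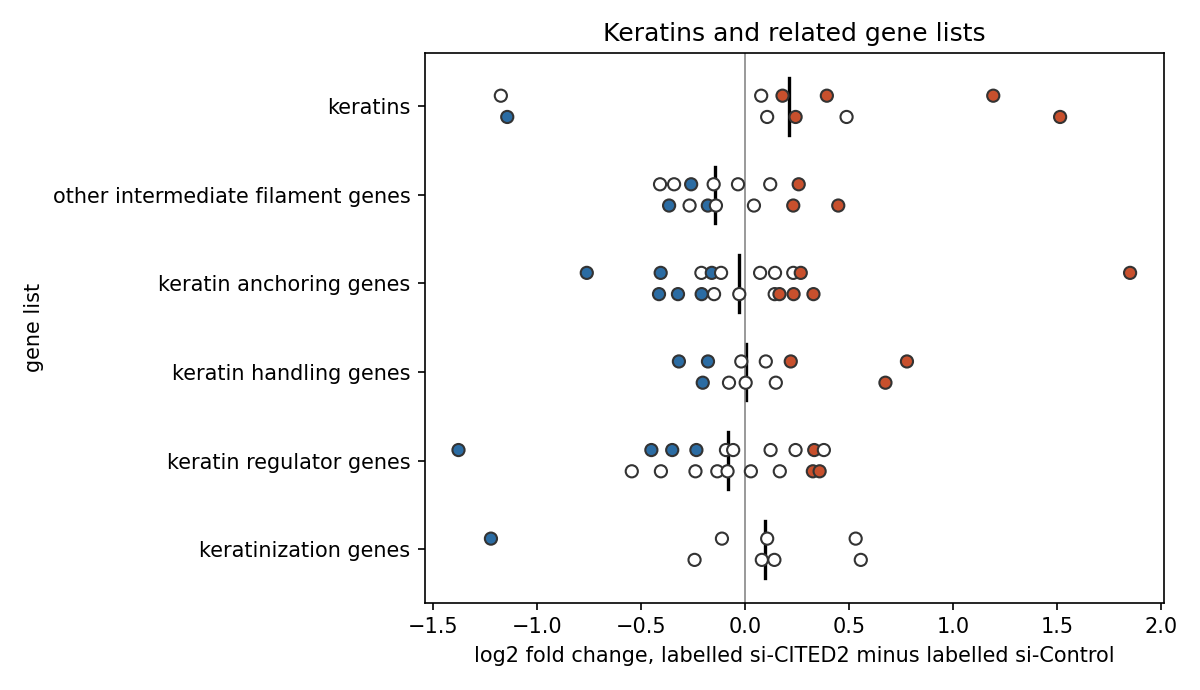
Log2 fold changes of the fitted genes of 6 lists, with 1 point per gene (red higher, blue lower, open not past the threshold) and a bar at the median of the fitted genes. In the 5 lists besides keratins, points past the threshold lie on both sides of 0, except among keratinization genes, where S100A9 alone passed.

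Of 24 transcription factors linked to keratin genes, 19 were fitted, 3 were higher (9.36% of all fitted genes), 4 were lower (8.09%) and 12 did not pass (median -0.08). SOX9 (0.33 ± 0.079 SE, adjusted p = 0.0073) and CEBPB (0.33 ± 0.057, adjusted p = 6.59e-04) were among the higher. ZNF750, a factor of epidermal differentiation, was lower (32.2 ± 6.01 to 12.2 ± 6.36 normalized counts, log2 fold change -1.38 ± 0.36 SE, adjusted p = 0.0128). TFAP2A (-0.45 ± 0.056, adjusted p = 2.43e-05) and ELF3, an epithelial ETS factor (-0.35 ± 0.094, adjusted p = 0.0157), were lower as well.

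Of 28 keratinization genes, which form the cornified layer of skin, 8 were fitted. Of these, 1 was lower (8.09% of all fitted genes), 0 were higher (9.36%) and 7 did not pass. S100A9 went from 45.8 ± 8.80 to 19.9 ± 5.63 normalized counts (log2 fold change -1.22 ± 0.28 SE, adjusted p = 0.0055), and 0 were higher in edgeR's quasi-likelihood test or in DESeq2, with 1 higher at an unadjusted p under 0.05. As a check for keratinocyte RNA, the 9 non-keratin keratinocyte markers summed to 174.5 to 185.3 CPM in si-Control and 187.7 to 198.5 CPM in the libraries labelled si-CITED2. Most of this was DMKN (159.5 to 184.1 CPM), followed by FLG (9.84 to 12.8 CPM). CDSN received 23 to 53 counts per library and DCD 17 to 32. CALML5 was at 0, LOR had at most 1 count, SBSN at most 2, IVL at most 3 and CASP14 at most 4. The 6 fibroblast markers summed to 5.56 to 5.88 and 6.15 to 7.38 CPM, and the 6 blood cell markers, of which HBG1 and AHSP were at 0, to 0.451 to 1.41 and 1.18 to 1.84 CPM. The part of these in the keratin values was not tested.

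Of the 18 other intermediate filament genes, 14 were fitted, 3 were higher (9.36% of all fitted genes), 3 were lower (8.09%) and 8 did not pass (median -0.15). DESeq2 called 2 of them higher and 3 lower. VIM, the intermediate filament of mesenchymal and many cultured cells, went from 30003 ± 894.8 to 35873 ± 908.7 normalized counts (log2 fold change 0.26 ± 0.045 SE, adjusted p = 6.55e-04). The neuronal INA (0.45 ± 0.14, adjusted p = 0.0366) and IFFO2 (0.23 ± 0.070, adjusted p = 0.0299) were also higher. The lower genes were the 3 lamins, which line the nucleus, LMNA (-0.36 ± 0.046, adjusted p = 2.64e-05), LMNB1 (-0.26 ± 0.062, adjusted p = 0.0071) and LMNB2 (-0.18 ± 0.044, adjusted p = 0.0088). Of the 4 non-keratin PC3 markers, EPCAM (log2 fold change -0.33 ± 0.062 SE, adjusted p = 0.0011) and CDH1, E-cadherin (-0.52 ± 0.063, adjusted p = 1.67e-05), were lower, while CD44 was higher (0.89 ± 0.047, adjusted p = 6.14e-10). PSCA stood at -0.24 ± 0.24 with overlapping groups (adjusted p = 0.576).

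**Figure D5:**
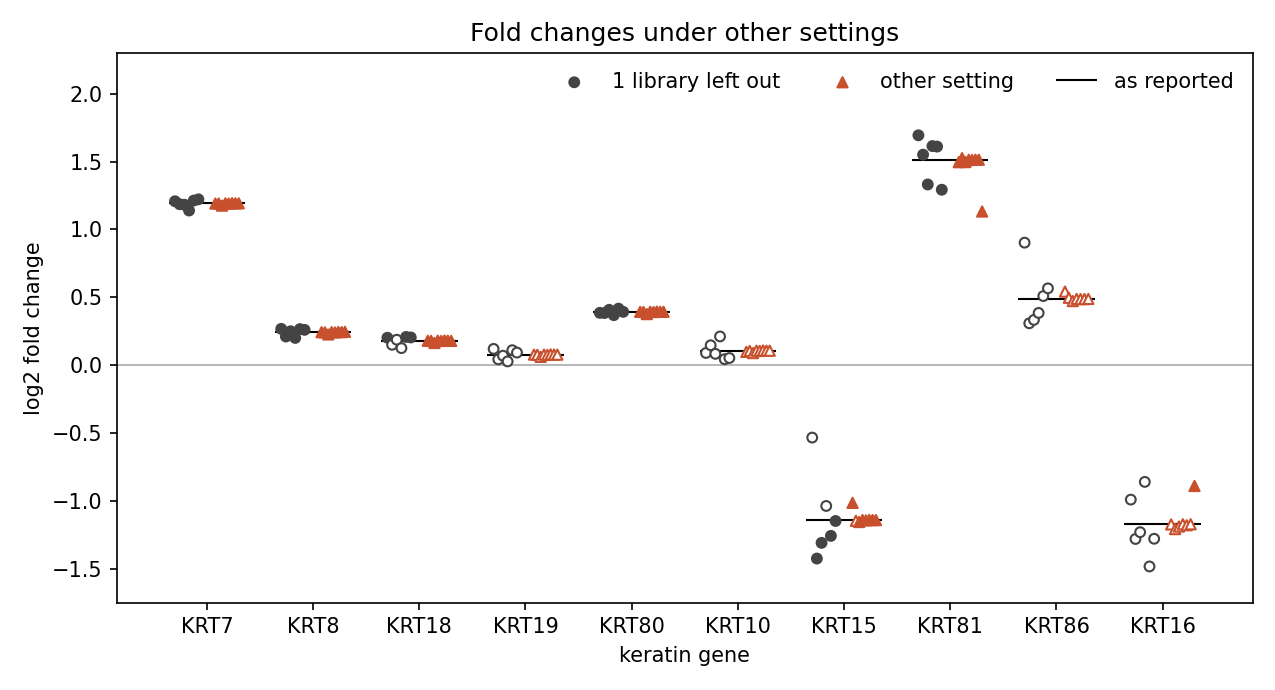
Log2 fold change of each fitted keratin as reported (line), with 1 library left out (circles) and under other processing settings (triangles); filled symbols passed the threshold and open symbols did not. KRT7, KRT8, KRT80 and KRT81 are filled under every setting, while KRT15 without si-Control 1 moves to -0.53.

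The calls of KRT7, KRT8, KRT80 and KRT81 held under all 14 alternatives run. Their log2 fold changes ranged from 1.14 to 1.22 for KRT7, from 0.20 to 0.27 for KRT8, from 0.37 to 0.42 for KRT80 and from 1.13 to 1.69 for KRT81. The lowest value for KRT81 was that of its sum with KRT86.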

How the data were processed

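The authors deposited raw read counts per gene symbol, 1 file per library, without normalization; the submitters' processing notes name TopHat, edgeR and hg19, and the counting program, strand setting and handling of shared reads were not given in the sources used here. The files hold 25737 rows and 24462 symbols; of the 286 symbols with several rows only the best counted was used, which left out 0.0821% of counts. The fit used edgeR 4.0.16 and limma 3.58.1 under R 4.3.3 (filterByExpr, TMM, glmQLFit and glmQLFTest, group only, all 6 libraries), with Benjamini-Hochberg adjustment over 16314 genes. The 95% intervals and SE come from that test. Normalization factors were 0.993 to 1.01 and the common biological coefficient of variation 0.061. No libraries were duplicates (lowest chi-square per degree of freedom within a group 2.89). The study states independent experiments, the labels do not, so p-values measure the spread between these samples.

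Transcript lengths, 50-base windows and sequences came from GENCODE 29 (GRCh38). Ratios were compared by exact permutation (scipy 1.17.1). Every fitted keratin was named, and of each related list up to 3 genes per direction with the largest change among those past the threshold; some genes that this rule or the marker lists hold are not reported here. The keratins and lists were chosen with earlier results of these data known. Alternatives were a replicate block, DESeq2 1.42.0 in place of edgeR, its size factors, library size without TMM, no filter, at least 10 counts in every sample, rows of a symbol summed, leaving out each library and, chosen after seeing the data, near-identical copies summed. Scripts were tested on simulated data.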

Additional observations from a re-analysis of the deposited data

Results flagged for a closer look

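KRT8P41, a KRT8 pseudogene outside the keratin rule, is listed here because it differed between the groups in rows that the keratin comparison did not use. It received 319, 273 and 174 counts in si-Control against 302, 298 and 269 in the libraries labelled si-CITED2, or 236.0 ± 41.8 and 315.4 ± 44.7 normalized counts (SD, n = 3). The groups did not overlap, and the log2 fold change was 0.41 ± 0.13 (SE, adjusted p = 0.0428 by edgeR's quasi-likelihood test). KRT8P41 matched the KRT8 coding sequence at 1281 of 1427 aligned bases (89.8%), with no unbroken match over 60 bases. Within the ungapped parts of this alignment, the 90 bases with the most differences are shown, with the 17 differing bases in capitals. They are coding bases 928 to 1017 of KRT8 and transcript bases 950 to 1039 of KRT8P41.
KRT8: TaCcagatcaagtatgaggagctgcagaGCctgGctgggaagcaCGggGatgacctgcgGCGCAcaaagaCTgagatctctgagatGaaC
KRT8P41: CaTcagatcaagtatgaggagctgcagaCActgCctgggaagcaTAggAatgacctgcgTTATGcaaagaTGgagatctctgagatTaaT
Whether reads of KRT8 were counted on KRT8P41 was not tested. With the counts of both summed, the log2 fold change of KRT8 was 0.25 (adjusted p = 0.0025).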

How the results depend on the processing

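The number of keratins called higher was 5 under every alternative except when si-Control 2, si-Control 3 or si-CITED2 1 was left out, where it was 4 because KRT18 was lost. The number called lower was 1 and less stable. It was 0 with DESeq2 in place of edgeR, with 1 at an unadjusted p under 0.05. With near-identical copies summed it was 2, where the sum of KRT16 with its pseudogenes joined KRT15. Leaving out 1 library at a time gave 0 to 1, with 0 without si-Control 1 and without si-CITED2 1. The cause was not tested. Over all genes, 1135 to 1595 were called higher and 881 to 1530 lower. Without TMM, the calls were 1390 higher and 1530 lower, against 1527 and 1319 as reported, and the median log2 fold change of all genes moved from -0.0014 to -0.018. The log2 fold change of each fitted keratin kept its direction under the alternatives that gave a value. KRT18 and KRT15 each missed the threshold under 3 of 14. KRT16 passed it under 1 of 13, only as the sum with its pseudogenes.

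The replicate numbers of the 2 groups did not pair the samples: deviations of same-numbered libraries correlated at -0.038, 0.034 and -0.011, and 2 of 6 libraries correlated best with their own number. With the replicate number as a block, 5 keratins were higher and 1 lower, KRT15 stood at -1.02 (adjusted p = 0.0228), and 1405 and 1154 of all genes were called. Depth limits the 45 keratins outside the fit, of which 35 had at least 1 count and none over 27.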

Other observations

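Besides the keratins, 106 symbols begin with KRT, and 7 of them were fitted (KRT16P2, KRT18P55, KRT8P41, KRTAP2-3, KRTAP5-4, KRTCAP2 and KRTCAP3). KRT8P41 was the only 1 called, where 17.4% of all fitted genes were called in either direction. KRT18P55 stood at 18.9 ± 2.88 normalized counts in si-Control and at 9.36 ± 3.29 in the libraries labelled si-CITED2 without overlap (log2 fold change -1.01 ± 0.38 SE, adjusted p = 0.0782 by edgeR's quasi-likelihood test). Thus it stood lower where KRT18 itself was higher.

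The nearest fitted genes around the keratin clusters were read by position, a choice made after seeing the data. Over all fitted genes, 17.4% were called in either direction. Of the 10 around the chromosome 12 cluster, 5 on each side, EIF4B, a translation initiation factor, was the 1 gene called and was lower (log2 fold change -0.14 ± 0.045 SE, adjusted p = 0.0394). Of the 11 around or within the chromosome 17 cluster, IGFBP4 (0.73 ± 0.056, adjusted p = 8.02e-08), TNS4 (0.70 ± 0.090, adjusted p = 3.42e-05) and JUP, plakoglobin (0.23 ± 0.052, adjusted p = 0.0048), were higher and TOP2A was lower (-0.47 ± 0.047, adjusted p = 1.86e-06).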
